A study of Homo sapiens with 8 samples.

Results

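Regions marked by H3K4me3 that lie far from every annotated gene start were examined in SUM159 cells. They were found from the deposited peak lists alone. Bases of chromosomes 1 to 22 that lay under an H3K4me3 peak in all 4 libraries were merged without joining gaps, and intervals of at least 2 kb were kept where every base was over 10 kb from the annotated 5′ end of every gene in GENCODE release 44, whatever the gene's type. Intervals with any base under an H3K9me3 peak in all 4 libraries of that mark were left out. Of 23848 H3K4me3 regions of at least 2 kb that all 4 lists shared, 7187 (30.1%) met the rule and are called distal regions here. They span 26.1 Mb, against 75.3 Mb for the 15540 regions within 10 kb of a gene start (near regions), and another 1121 distant regions touched H3K9me3 of all 4 lists. Since presence in the 4 H3K4me3 lists chose the distal regions, their H3K4me3 values are given as a description.

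SUM159 cells, a line of triple-negative breast cancer, were used throughout. All cells carried the lentiviral dCas9-KRAB vector (pLV-KRAB), a Cas9 without nuclease activity fused to a repressor domain that recruits H3K9 methylation. Cells labelled All gRNA also received 4 guide RNAs (gRNAs) against the promoter of ZEB1, and cells labelled No gRNA carried the empty vector with no targeting guide. Native ChIP-seq, in which nuclease-released chromatin is pulled down without cross-linking, was performed for each mark on 2 libraries of each group, labelled as biological replicates, so 8 peak lists were available. The lists hold no read counts, and the depth behind each value is therefore unknown.

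The labels of the H3K4me3 libraries need caution. The deposited files of the library labelled All gRNA replicate 2 and of the library labelled No gRNA replicate 1 bear the name of the other condition. At the ZEB1 gene start ± 1 kb, H3K4me3 peaks covered 0% in the libraries labelled All gRNA replicate 1 and No gRNA replicate 1 and 100% in the libraries labelled All gRNA replicate 2 and No gRNA replicate 2, so this locus did not separate the labelled groups. It did split the libraries by file name: the peak was present in both whose files are named for the empty vector and absent in both whose files are named for All gRNA. H3K9me3 at the ZEB1 gene start ± 10 kb followed the labels, with 79.4% and 82.0% of bases under peaks in All gRNA, whereas No gRNA had 4.6% and 1.3%. The study reports that All gRNA cells lost nearly all H3K4me3 at the ZEB1 promoter. Grouping by file name shows such a loss here, and grouping by label does not. Whether the labels or the file names are right was not settled here. The labels were kept, and each difference in H3K4me3 below is one between libraries as labelled, which would be a mixture of both conditions if the file names are right. The library labelled No gRNA replicate 1 also stood apart from the other 3. Across the 15540 near regions, Spearman's rho of the peak −log10 q was 0.280 to 0.286 between this library and the others and 0.684 to 0.721 among the others. Over the 7187 distal regions the same values were 0.333 to 0.361 and 0.468 to 0.554. Regions are not replicates, and these coefficients only describe how alike the lists were.

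H3K4me3 is deposited at active promoters by SET1 and MLL methyltransferases, which are drawn to CpG-rich DNA and to elongating RNA polymerase. Its broadest domains are known to lie over genes that define a cell's identity. Away from annotated promoters the mark is usually weak, because enhancers carry mainly the monomethylated form, but it does occur at alternative promoters inside genes, at promoters of unannotated transcripts and at very active enhancers. AP-1, a dimer of FOS and JUN family proteins, binds many enhancers of mesenchymal and basal-like breast cancer cells, often together with TEAD factors and their coactivators YAP and TAZ.

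Sequences at 2 of the regions with the strongest peaks in all 4 lists show the type of distal region that resembles a promoter. The 200-base windows that held the most CG dinucleotides without touching an annotated exon had 33 CG in the RUNX1 region and 18 CG in the KANK1 region. They are printed from hg38, plus strand, with each CG in capitals.
RUNX1 window, chr21:34888811-34889010: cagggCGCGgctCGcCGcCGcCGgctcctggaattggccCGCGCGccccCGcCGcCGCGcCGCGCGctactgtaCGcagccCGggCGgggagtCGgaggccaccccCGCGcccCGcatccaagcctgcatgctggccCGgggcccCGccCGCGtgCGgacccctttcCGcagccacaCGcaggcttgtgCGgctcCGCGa
KANK1 window, chr9:707248-707447: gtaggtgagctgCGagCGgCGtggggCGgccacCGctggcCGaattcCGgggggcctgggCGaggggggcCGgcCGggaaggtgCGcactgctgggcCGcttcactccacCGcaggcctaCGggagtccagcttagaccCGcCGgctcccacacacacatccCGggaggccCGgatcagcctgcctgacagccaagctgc
Both lie inside a gene, in regions that hold starts of coding transcripts far from the 5′ end of the gene. GC made up 80.0% of the RUNX1 window and 73.0% of the KANK1 window.

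A further set of windows, again the richest exon-free 200 bases of strong regions, shows other sequence matches. Capitals mark the searched letters on either strand: AP-1 (TGANTCA), TEAD (GGAATG), the GC box (GGGCGG) and the E-box bound by ZEB and SNAI repressors (CACCTG). N stands for any base, so the AP-1 search is loose, and TGAATCA counts as a match as well as TGACTCA. The LMNA window held 1 AP-1, 1 TEAD and 2 GC box matches, the gene-poor window on chromosome 5 held 1 AP-1 match, and the SKAP2 window held 1 TEAD and 1 E-box match.
LMNA window, chr1:156123666-156123865: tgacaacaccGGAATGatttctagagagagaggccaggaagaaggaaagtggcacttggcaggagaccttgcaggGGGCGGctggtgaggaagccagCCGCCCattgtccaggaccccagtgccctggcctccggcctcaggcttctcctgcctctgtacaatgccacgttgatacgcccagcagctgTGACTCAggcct
chromosome 5 gene-poor window, chr5:85645558-85645757: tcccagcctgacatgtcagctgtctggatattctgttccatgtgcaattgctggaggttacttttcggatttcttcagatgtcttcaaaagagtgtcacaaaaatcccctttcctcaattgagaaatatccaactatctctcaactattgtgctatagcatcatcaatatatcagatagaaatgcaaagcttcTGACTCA
SKAP2 window, chr7:26855474-26855673: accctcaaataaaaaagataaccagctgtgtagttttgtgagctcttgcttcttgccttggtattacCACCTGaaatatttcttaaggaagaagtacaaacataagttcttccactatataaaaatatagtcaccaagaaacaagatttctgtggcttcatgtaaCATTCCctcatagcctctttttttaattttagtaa
A match is only the presence of these letters, not a bound site.

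The most frequent kind of distal region had no transcript start, little CG and more AP-1 letters than other distal sequence. To show clusters of these letters, windows with at least 3 AP-1 matches outside exons were looked for after the values had been seen. The search covered distal regions over 1 kb from a transcript start, with 1 chromosome not searched. There were 68 regions with such a window. Of these, the strongest by lowest percentile among the 4 lists lay 26498 bases from the start of AGPAT4, the nearest coding gene, and the next lay 337424 bases from RFC3. Capitals mark the AP-1 letters.
AGPAT4 neighbour window, chr6:161303741-161303940: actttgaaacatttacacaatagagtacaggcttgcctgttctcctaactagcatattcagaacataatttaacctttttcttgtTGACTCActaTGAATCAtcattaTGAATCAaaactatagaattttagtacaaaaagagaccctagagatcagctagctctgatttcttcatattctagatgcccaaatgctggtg
RFC3 neighbour window, chr13:34157087-34157286: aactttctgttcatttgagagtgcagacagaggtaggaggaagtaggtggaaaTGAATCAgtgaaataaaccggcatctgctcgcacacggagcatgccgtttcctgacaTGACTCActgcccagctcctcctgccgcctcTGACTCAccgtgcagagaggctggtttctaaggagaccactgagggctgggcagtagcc
The region near AGPAT4 had folds over the MACS2 background of 2.94 and 2.71 in the pair labelled All gRNA and 2.80 and 2.79 in the pair labelled No gRNA. The region near RFC3 had folds of 2.66 and 3.15, and 2.55 and 2.86, in the same order. In neither region did the folds of the labelled groups separate.

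Each value of a region is that of the broad peak that covers it, since every region lay inside a single peak of each list. Fold is the peak's enrichment over the MACS2 background, and the percentile is the rank of its −log10 q among all peaks of its own list. Broad peaks can be wide, and some regions therefore share a peak with a gene start. The peak that carried a distal region also covered a gene start in 1.89% and 3.51% of distal regions in the pair labelled All gRNA, and in 10.6% and 5.75% in the pair labelled No gRNA. In 6073 of 7187 distal regions (84.5%) no list had such a peak. In 4845 (67.4%) the peak itself stayed over 10 kb from every gene start in all 4 lists. Below, a shared peak is named where it touches a result, and folds are given for the pair labelled All gRNA (replicates 1 and 2), followed by the pair labelled No gRNA.

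Most of the strongest distal regions held annotated transcript starts inside genes. Only 46 of 7187 (0.640%) lay under a peak with q of 0.05 or less in all 4 lists. Of these 46, 35 (76.1%) held the start of an annotated transcript and 32 (69.6%) that of a coding transcript, and in 42 none of the peaks reached a gene start. Over all distal regions the shares were 17.0% (1224 regions) for any transcript start and 9.78% (703 regions) for a coding one.

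The region with the highest lowest-of-4 percentile, chr5:14175882-14192495, lay 32.5 kb inside TRIO, a guanine nucleotide exchange factor, and held 1 coding start. Its folds were 3.29 and 3.22 in the pair labelled All gRNA and 4.06 and 4.36 in the pair labelled No gRNA. The latter 2 were the higher, but in the lists labelled All gRNA replicate 2 and No gRNA replicate 2 the peak reached the TRIO gene start, so its value is not that of the region alone. KANK1, an adaptor of the cortical cytoskeleton, held the next one (chr9:706528-709398) with 7 coding starts. Folds there were 4.24 and 3.14, and 3.03 and 5.38, in narrow peaks of 2871 to 5679 bases. The highest and the lowest of these folds belonged to the 2 libraries labelled No gRNA.

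RUNX1, a transcription factor with a distal and a proximal promoter, held a region of 10925 bases (chr21:34880421-34891345) with 4 coding starts, 1113.32 kb from the gene's annotated 5′ end. Its folds were 3.98 and 2.87, and 3.87 and 4.43. A region in LMNA, which encodes lamins A and C of the nuclear envelope, spanned 21508 bases (chr1:156110766-156132273) with 10 coding starts and folds of 3.37 and 3.14, and 2.89 and 3.83. In the lists labelled All gRNA replicate 2 and No gRNA replicate 1 this peak also covered a gene start. ELF2, an ETS family factor, held chr4:139082143-139085087 with 4 coding starts and folds of 3.40 and 3.17, and 2.97 and 4.62. In each of these 3 regions the folds of the labelled groups overlapped. The percentiles at LMNA did not, with 99.66 and 99.87 in the pair labelled All gRNA and 99.63 and 99.59 in the pair labelled No gRNA (p = 0.33, exact permutation test).

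Among the other strong regions at transcript starts was that of TP63 (chr3:189787790-189793480), 156.4 kb inside the gene. TP63 encodes a p53 family factor of basal epithelial cells, and starts within the gene give the isoforms without the N-terminal transactivation domain. Folds were 3.61 and 3.03 in the pair labelled All gRNA and 2.80 and 3.71 in the pair labelled No gRNA. The percentiles, 99.83 and 99.71, and 99.38 and 99.40, did not overlap between the labelled groups (p = 0.33, exact permutation test). SLC2A3, a glucose transporter, held chr12:7929490-7936329 with folds of 3.57 and 3.12, and 2.80 and 4.26. SKAP2, an adaptor protein, held chr7:26855474-26859464, with a non-coding transcript start and folds of 4.15 and 2.84, and 2.92 and 5.38. TRPS1, a GATA-type repressor of breast epithelium, held chr8:115666146-115669666 with 8 coding starts and folds of 3.29 and 3.85, and 3.72 and 4.43. NEDD4, a ubiquitin ligase, had the widest spread of these, with folds of 4.24 and 3.11, and 2.65 and 7.04. The library labelled No gRNA replicate 2 had the highest fold at all 5 regions, so that much of the spread in fold lay within a labelled group.

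A few strong regions held no annotated transcript start. The region chr5:85645378-85648784 lay in no coding gene, 969144 bases from the start of COX7C, with folds of 3.71 and 2.92, and 3.01 and 4.16. The region chr4:138254114-138257178 lay 11765 bases upstream of SLC7A11, the cystine and glutamate antiporter, with folds of 3.27 and 3.29, and 3.28 and 3.82. The peak of the library labelled All gRNA replicate 2 reached the SLC7A11 gene start. SLC3A2, the heavy chain that pairs with SLC7A11 in this transporter, held another of the 46 strong regions, with 11 coding starts and folds of 3.04 and 3.09, and 2.76 and 3.74, the last from a peak that also covered a gene start. The region chr7:116511176-116513847, upstream of CAV1, the main coat protein of caveolae, was 11147 bases from its start and had folds of 3.06 and 3.00, and 2.82 and 3.74. In all 4 of these the folds of the labelled groups overlapped.

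Over all distal regions the peaks were weaker than over near regions in 3 of the 4 lists. Median folds were 2.12 and 2.06 in the pair labelled All gRNA and 2.21 and 2.19 in the pair labelled No gRNA, and 2.52, 2.36, 2.24 and 2.88 over near regions in the same order. A peak with q of 0.05 or less covered 7.47%, 2.46%, 16.3% and 17.3% of distal regions, against 38.3%, 13.2%, 16.8% and 64.4% of near regions. The library labelled No gRNA replicate 1 was the exception, with nearly equal shares. Where the peak itself stayed over 10 kb from gene starts, the shares of distal regions were 6.82%, 2.51%, 13.4% and 14.0%, and where it covered a gene start they were 42.6%, 5.56%, 39.6% and 70.9%.

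**Figure D1:**
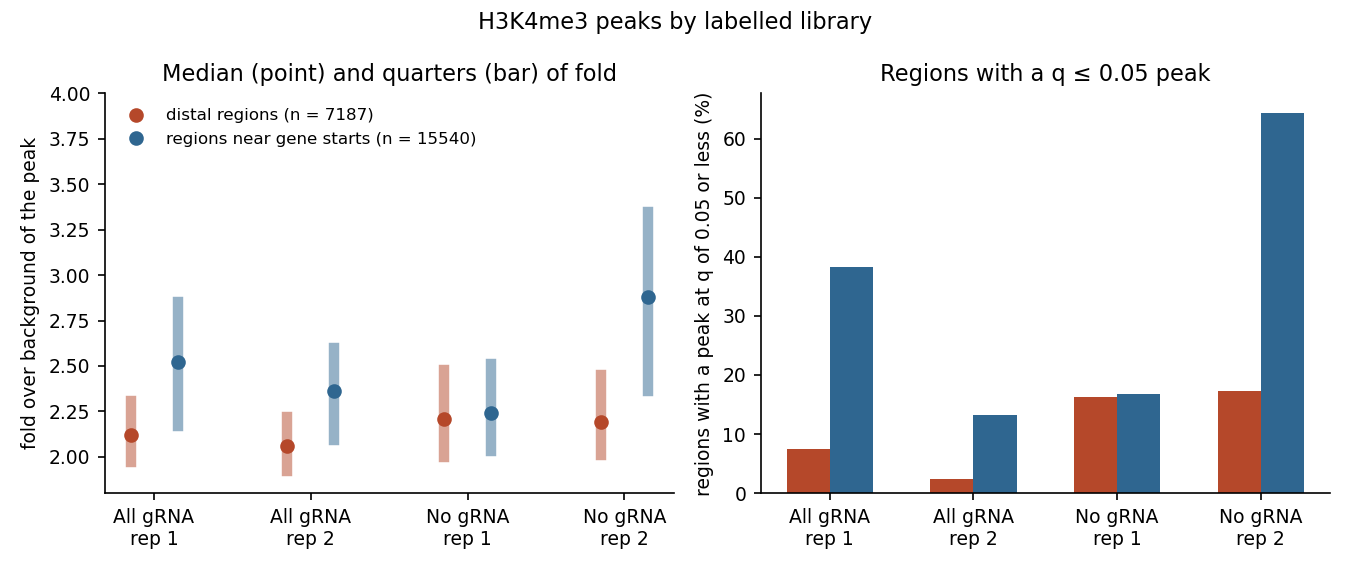
H3K4me3 peaks in the 4 libraries as labelled, over distal regions (red, n = 7187) and regions within 10 kb of a gene start (blue, n = 15540). Left, median (point) and interquartile range (bar) of the fold over background of the covering peak. Right, percent of regions whose peak had q of 0.05 or less. Distal regions are lower than near regions except in the library labelled No gRNA replicate 1, where the shares are 16.3% and 16.8%.

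Most distal regions were weak in every list. A peak with q of 0.05 or less was found in no list for 5019 regions (69.8%), in 1 list for 1471 (20.5%), in 2 for 473 (6.58%) and in 3 for 178 (2.48%). Near regions had no such peak in 4502 cases (29.0%) and had one in all 4 lists in 562 (3.62%). The largest class with a q ≤ 0.05 peak, 816 regions (11.4%), had it in the library labelled No gRNA replicate 1 alone. Of these, 12.9% held a transcript start and 69.0% the AP-1 letters. The 581 regions (8.08%) with such a peak in the library labelled No gRNA replicate 2 alone held a transcript start in 29.9% and AP-1 in 57.8%. The 224 regions with it in the libraries labelled All gRNA replicate 1 and No gRNA replicate 2, and in no other, held a transcript start in 55.4%, AP-1 in 43.8% and a CpG observed over expected ratio of 0.401. The classes thus differed in makeup from library to library, and whether yield, a library's quality or the labels lay behind this was not tested.

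Most distal regions lay within genes. There were 5328 (74.1%) wholly inside a protein-coding gene, 1751 (24.4%) outside any and 108 across a gene edge, while 37.4% of 2 kb windows of distal genome under no H3K4me3 list were within a coding gene. An annotated exon was touched by 35.6% of distal regions. The median distance to the closest gene start was 24728 bases, and 66.5% were downstream of the start of their nearest coding gene. Counted from the starts of coding genes alone, 1447 distal regions (20.1%) lay at 10 to 20 kb and 706 (9.82%) at 200 to 2000 kb. The median width was 2866 to 2942 bases in every class of distance. Widths had a median of 2908 bases (interquartile range 2362 to 4026), against 3720 for near regions.

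Several of the widest distal regions lay inside genes. ARHGAP35, a GTPase-activating protein, held 31889 bases with folds of 2.27 and 2.23 in the pair labelled All gRNA and 2.45 and 2.34 in the pair labelled No gRNA. SMAD3, the signal transducer of TGF-β, held 28319 bases (chr15:67082917-67111235) with folds of 2.68 and 2.41, and 2.91 and 2.86. TTLL11 and GNG12 followed with 26215 and 25129 bases. In all 4 of these both libraries labelled No gRNA had higher folds than both labelled All gRNA, but the percentiles within each list overlapped between the labelled groups at ARHGAP35 and SMAD3. The SMAD3 region shared its peak with a gene start in all 4 lists and the GNG12 region in 1.

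By bases held, the leading host genes were LPP, a LIM protein of focal adhesions, with 30 distal regions over 132.9 kb, the potassium channel gene KCNMA1 with 22 over 114.1 kb, the cytoskeletal linker DST with 23 over 109.8 kb, TRIO with 19 over 109.6 kb and FNDC3B with 19 over 101.7 kb. Relative to gene length, ARHGAP35 stood out among these, with 69.3% of its bases in 12 distal regions, against 28.2% in TRIO and 18.0% in LPP. SMAD3 had 5 distal regions over 49.1% of the gene. In all, 2648 coding genes held at least 1 region, of which 246 held 5 or more and 1490 held 1. Distal regions were grouped: 41.6% lay within 10 kb of another and 77.3% within 100 kb, so that neighbours often share a peak and a domain. Density was 3.46 regions per Mb of distal sequence (assembly gaps included), with 7.73 on chromosome 19 and 1.61 on chromosome 13.

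**Figure D2:**
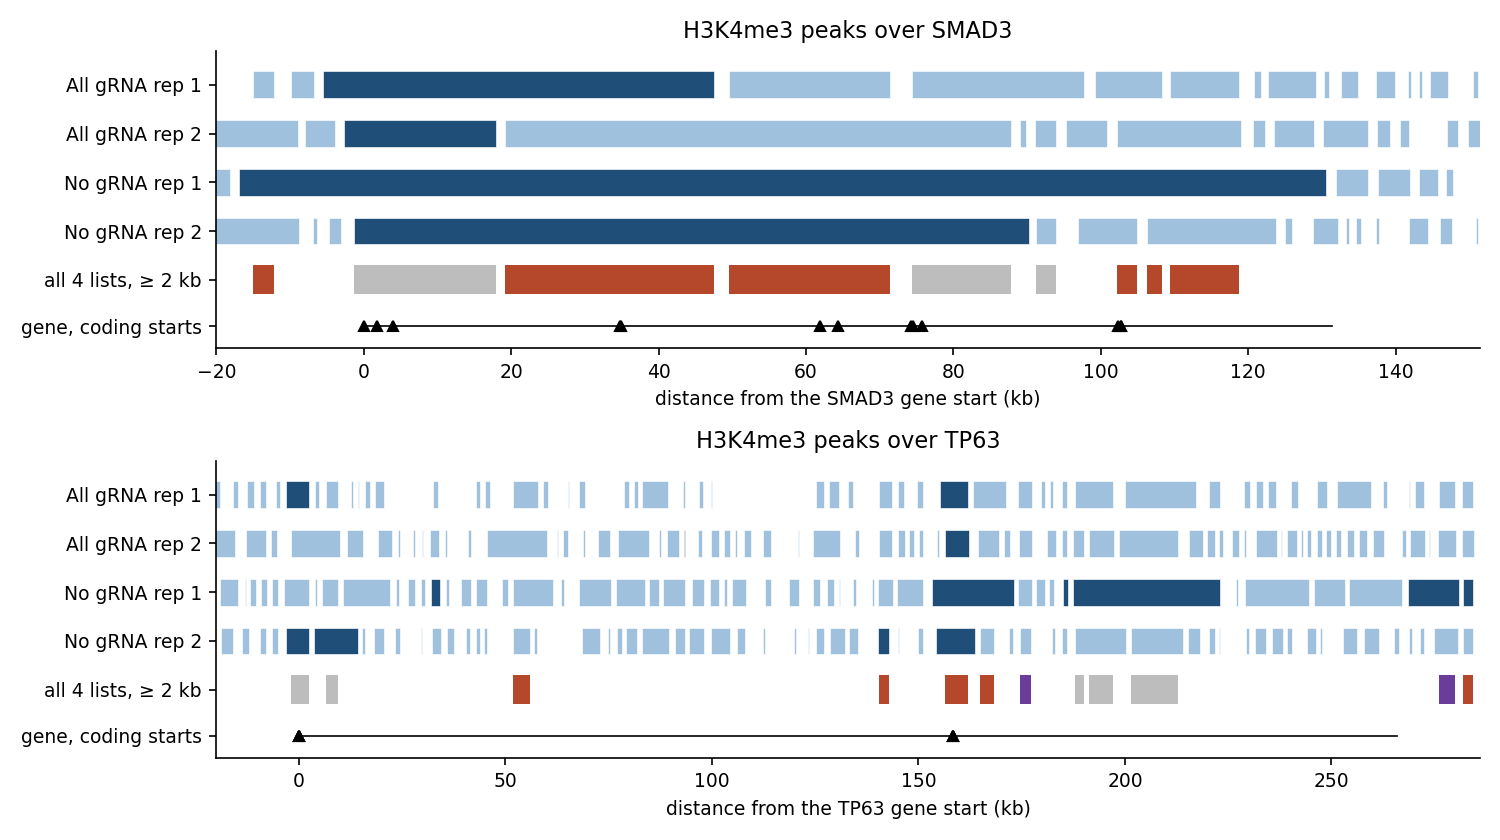
H3K4me3 peaks over SMAD3 and TP63 by distance from the gene start in kb. Blue bars are peaks of each library as labelled, dark where q was 0.05 or less. In the row of regions shared by all 4 lists, red marks distal regions, grey near regions and purple distal regions that touch H3K9me3 of all 4 lists, and triangles mark coding transcript starts. A single peak of 147465 bases spans all distal regions in SMAD3 in the library labelled No gRNA replicate 1, while at TP63 the region at the internal starts is under a dark peak that ends short of every gene start in each library.

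Regions within the loci showed how peaks of different width changed the values. SMAD3, 131.4 kb long, held 5 distal regions. The library labelled No gRNA replicate 1 had 1 peak over all 5 and hence the same fold, 2.91. In the other 3 libraries folds over these 5 regions ran from 1.97 to 2.86. That peak covered a gene start, as did those behind the values of 2.41 and above in the other libraries. In TP63, the 3 other distal regions within the gene had lower folds than that at the internal starts in all libraries but the one labelled No gRNA replicate 1, where 1 of the 3 shared its peak. A region 51.95 to 55.89 kb from the gene start had folds of 2.25 and 2.02 in the pair labelled All gRNA, and 2.54 and 2.46 in the pair labelled No gRNA. In CD44, 4 distal regions lay between 17.48 and 41.06 kb inside the gene, with folds of 2.03 to 2.64 in single libraries. The 2.64 of the library labelled No gRNA replicate 1, at all 4, and the 2.62 of All gRNA replicate 2, at the first, belonged to peaks that also covered a gene start, and the other folds were 2.03 to 2.19.

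At the far end of the range were 3 regions chosen by distance. The farthest, chr1:216765303-216767506 in an intron of ESRRG, an orphan nuclear receptor, lay 341855 bases from any gene start with folds of 2.40 and 2.07, and 2.25 and 2.58. The next, chr14:83355453-83358459, lay 306874 bases away with folds of 2.38 and 2.00, and 1.92 and 2.37. The third, in SPOCK1, lay 285341 bases away with folds of 1.89 and 2.06, and 2.47 and 2.05. None had a q ≤ 0.05 peak in any list. At the limits of the rule, regions in GPBP1 and UBE2D2 had 2000 bases and 2 just outside had 1999, and distances were 10001 (in UBE2N) and 10002 bases (in YEATS2) inside and 9998 (in SMARCAL1) and 9992 (in CAMSAP2) outside. Folds in single libraries ran from 1.85 to 3.09 in the 4 regions just inside and from 1.75 to 3.29 in the 4 just outside, and both of these highest values came from peaks that also covered a gene start.

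Presence of a distal region could be read in a library that had not been used to choose it. With each library left out in turn, regions were chosen on the other 3 and looked up in its list. The left-out peaks covered 70.7% and 81.8% of their bases in the libraries labelled All gRNA replicate 1 and 2, and 88.5% and 83.2% in No gRNA replicate 1 and 2. The same lists covered 17.3%, 24.0%, 28.0% and 21.3% of all distal bases, so the ratio was 4.10, 3.42, 3.15 and 3.92. Each left-out list thus covered the regions of the other 3 more than it covered distal sequence as a whole. That whole includes the regions themselves and assembly gaps. No peak can lie in such gaps, so they raise these ratios, and by how much was not computed. What mapping, copy number or open chromatin add to such recurrence was not tested, as no input track was analysed here.

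Distal sequence changed in steps with the number of H3K4me3 lists. All 949723 consecutive 2 kb windows over 10 kb from gene starts were grouped by how many lists covered at least 1000 of their bases. From 0 to 4 lists, median GC was 36.9%, 40.3%, 42.2%, 43.4% and 44.05%, and windows within a coding gene made up 37.4%, 47.1%, 54.6%, 62.0% and 68.8%. Windows with a transcript start rose from 1.55% to 8.41%. The share with AP-1 letters did not follow the same steps. It was 47.2%, 46.0%, 46.0% and 48.9% for 0 to 3 lists and 57.8% for 4. Without the library labelled No gRNA replicate 1, the shares for 0 to 3 lists were 47.3%, 45.9%, 46.9% and 54.6%.

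AP-1 letters were more frequent in distal regions as a whole than in near regions and other distal sequence, but less so in the 46 strong regions. In the central 2000 bases, TGANTCA was present in 63.6% of distal regions, 46.2% of near regions and 47.3% of all distal windows. These letters read alike on both strands, and for the other motifs both strands were searched, with overlapping matches of different motifs each counted. Distal regions outside coding genes had AP-1 in 69.1%, those over 1 kb from any transcript start in 65.8% and those holding a transcript start in 54.7%. Within every band of GC content from 34% to 58%, windows under 4 lists had more AP-1 than windows under none, for example 59.9% against 44.3% at 38% to 42% GC and 53.2% against 41.0% at 50% to 54%.

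Of the other motifs, the TEAD, forkhead and CTCF letters differed less, while the E-box, GC box and ETS letters were more frequent at higher GC. TEAD letters were in 71.6% of distal regions, 65.8% of near regions and 67.3% of distal windows, and those of forkhead factors (TGTTTAC) in 25.9%, 21.8% and 28.0%. The E-box was in 82.0%, 85.0% and 70.4%, but at 38% to 42% GC it was in 71.1% of windows under 4 lists and 71.4% under none. The GC box was in 32.9%, 62.6% and 16.7%, and the ETS letters (CCGGAAG), typical of CpG-rich promoters, in 7.69%, 19.3% and 3.68%. At 38% to 42% GC, windows under 4 lists still had more of these than windows under none. The shares were 14.9% and 13.3% for the GC box, 3.79% and 2.77% for ETS, and 29.1% and 26.3% for forkhead letters. Part of the CTCF site (CCACTAG) was in 14.3%, 14.1% and 13.2%. Distal regions had a median GC of 44.7% and a CpG observed over expected ratio of 0.234, near regions 49.2% and 0.414, and all distal windows 38.9% and 0.187. Only 120 distal regions (1.67%) had at least 50% GC with a ratio of 0.6 or more, against 13.7% of near regions.

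AP-1 letters were concentrated at the middle of the regions. In distal regions over 1 kb from a transcript start (n = 5728), there were 0.560 and 0.551 matches per kb in the central bins of 500 bases and 0.326 and 0.341 in the outermost bins on the left, against 0.336 in all distal windows. CG dinucleotides rose little there, with 12.5 per kb at the centre and 11.6 at the left edge. Between the same bins TEAD letters rose from 0.58 to 0.66 per kb and the GC box from 0.21 to 0.26. Distal regions with a transcript start (n = 1224) had 22.985 CG per kb at the centre and 13.1 at the left edge. Their AP-1 matches per kb were 0.394 and 0.404 at the centre, up to 0.459 within 1 kb, and 0.363 and 0.332 in the outermost bins on the left. Near regions had 33.2 CG per kb at the centre. The rise in AP-1 letters was thus larger in distal regions over 1 kb from a transcript start, and the rise in CG larger in those holding one.

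**Figure D3:**
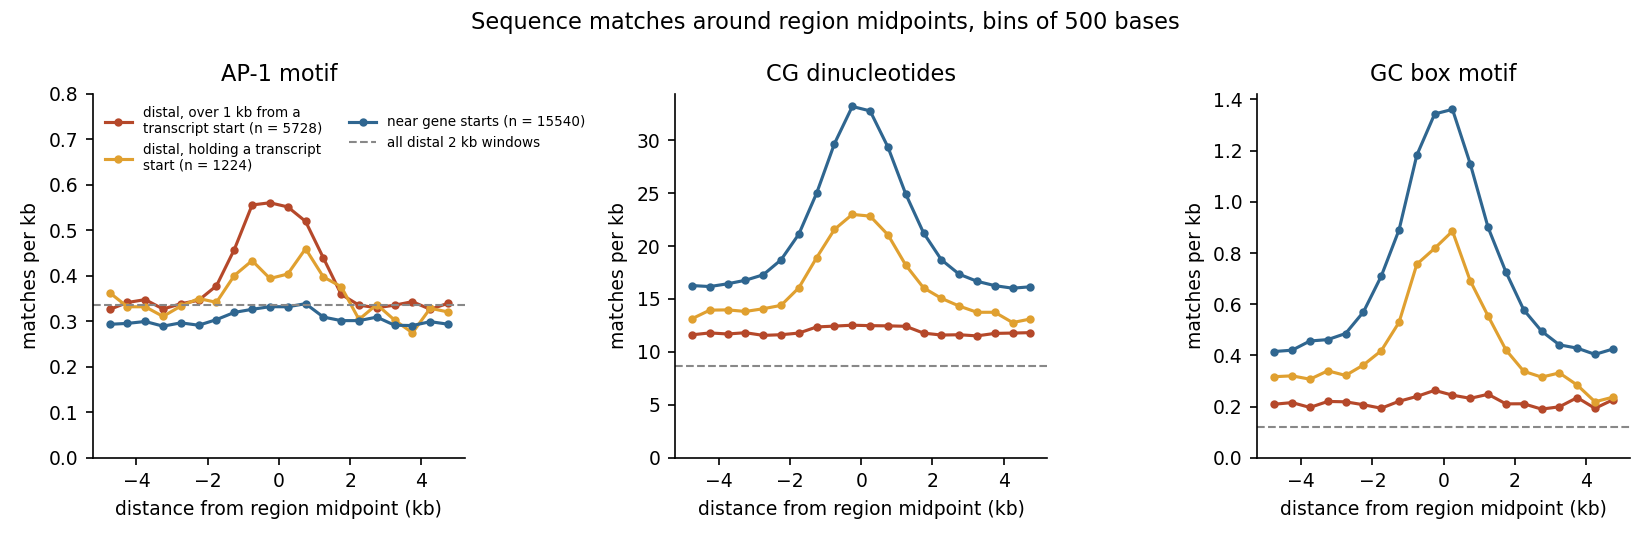
Matches per kb of the AP-1 letters, CG dinucleotides and the GC box by distance from the region midpoint, in bins of 500 bases out to 5 kb. Red, distal regions over 1 kb from a transcript start (n = 5728). Yellow, distal regions holding a transcript start (n = 1224). Blue, near regions (n = 15540). The dashed line is the mean of all distal 2 kb windows. AP-1 peaks at 0.560 per kb in the red curve, while CG and the GC box rise most in the yellow and blue curves.

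Transcript starts went with stronger peaks as well. Distal regions holding one had a q ≤ 0.05 peak in 23.5% and 9.56% in the pair labelled All gRNA and in 19.9% and 42.0% in the pair labelled No gRNA, against 4.17%, 0.995%, 15.992% and 12.2% for those over 1 kb from any. The order held in all 4 libraries. When distal regions were divided at the quartiles of their lowest percentile, from weakest to strongest, a transcript start was held by 10.6%, 11.6%, 15.1% and 30.8%, and AP-1 letters by 58.9%, 66.3%, 66.4% and 62.8%. Median widths in the same order were 2505, 2739, 3104 and 3902 bases, and a wider region can hold a start more easily. The part of width in the shares with a transcript start was not tested. Among regions over 1 kb from a transcript start the AP-1 shares were 60.3%, 68.2%, 67.5% and 67.4%, so that there the weakest set was the lowest and the other 3 were alike within 1 percentage point.

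Genes of each list examined had a distal region nearby more often than all coding genes. A distal region lay within 100 kb of the start of 37.1% of all 19111 coding genes. The share was 15 of 20 (75.0%) for a list of AP-1 and YAP/TEAD genes and 15 of 27 (55.6%) for mesenchymal genes, but also 14 of 22 (63.6%) for epithelial and 7 of 10 (70.0%) for luminal genes, so the lists did not order by the cell's type. FOSL2, a FOS family member, had 3 with the closest at 12417 bases, YAP1 had 4 with the closest at 19798 and TEAD1 had 7 with the closest at 28491. CD44, the hyaluronan receptor and a mesenchymal marker, had 8, of which the closest was at 17484 bases. Among epithelial genes, KRT8, KRT18 and RAB25 had 4 each. ZEB1 itself had none within 100 kb, and its nearest was 215120 bases away. VIM, SPARC, TWIST1 and AXL of the mesenchymal list, and WWTR1, CCN2 and ANKRD1 of the AP-1 and YAP/TEAD list, were among the others with none.

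Regions assigned to a list gene as their nearest coding gene were named by their lowest percentile. After TP63 and CAV1 came a region 333405 bases from CDH2, the neural cadherin, with folds of 2.89 and 2.38 in the pair labelled All gRNA and 2.53 and 2.94 in the pair labelled No gRNA. A region 109257 bases from TGFBR2, the TGF-β receptor, had folds of 2.90 and 2.45, and 2.65 and 2.55, where the peak behind the 2.65 also covered a gene start. A region in KRT8, a keratin of simple epithelia, had 2.52 and 2.23, and 2.41 and 2.46, and 1 region 313779 bases from ZEB2 had 2.80 and 2.42, and 2.67 and 2.53. The folds of the labelled groups overlapped at each of these 4. The label of the cells was checked at gene starts ± 1 kb: over all deposited peaks, all 6 mesenchymal markers were covered in every list (66.8% to 100% of bases), and 5 of 6 epithelial markers were also under some peak in every list (CDH1 by 24.2% to 93.6%). The exception, GRHL2, had none in the library labelled No gRNA replicate 1. Of 5 luminal markers, GATA3 and FOXA1 were covered in every list, PGR in 3, SPDEF in 1 and ESR1 in none. At q of 0.05 or less, each mesenchymal marker was covered in at least 1 list and none in all 4, GATA3 and FOXA1 only by peaks of No gRNA replicate 2 as labelled, and the 6 epithelial markers in no list.

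How many distal regions separated the libraries as labelled depended on the measure. A region was called where the lowest library of a labelled group was at least 25 percentage points above the highest of the other in the share of bases under q ≤ 0.05 peaks. Only 3 distal regions (0.0417%) were higher in All gRNA, where 0.101% of all 23848 regions were, and 187 (2.60%) were lower, where 2.99% of all were. These shares were near or below the background. The direction also changed with the measure, and the part of the lists' yield in this was not tested. When each list was kept to the same covered length, 19.2 Mb, 16 distal regions (0.223%, against 1.3% of all) were higher and 6 (0.0835%, against 0.319%) lower. By percentile, with a gap of 5 percentile points, 102 (1.42%, against 1.17%) were higher and 936 (13.0%, against 7.95%) lower. The share lower by percentile was 5.33% of near regions. H3K4me3 at ZEB1 itself split the libraries by file name and not by label, so none of these directions can be tied to the gRNAs. With 2 libraries against 2, the exact permutation test cannot give a p below 0.33.

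The 3 higher regions lay in CRKL, ARHGEF28 and USP7. In CRKL, an adaptor of tyrosine kinase signalling, folds were 3.29 and 2.84 in the pair labelled All gRNA and 2.21 and 2.29 in the pair labelled No gRNA. In USP7, a deubiquitinase, they were 2.68 and 2.82, and 1.75 and 1.94, and the percentile differed by 32.9 points (p = 0.33, exact permutation test). The ARHGEF28 region had 2.59 and 2.58, and 2.50 and 2.16. Its −log10 q was 1.316 in All gRNA replicate 2 and 1.283 in No gRNA replicate 1 as labelled, close values on either side of the limit. In all 3 the peaks of both libraries labelled All gRNA also covered a gene start, while in the libraries labelled No gRNA only the CRKL peak of replicate 1 did. The peaks thus differed in extent as well as in strength.

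Among the lower regions, those with the highest lowest percentile were in or near TCF4, IL6ST, MGLL and in a gene without a symbol, and 1 was in gene-poor sequence on chromosome 8. No region was partly under a q ≤ 0.05 peak, so all gaps were equal and this percentile alone picked the regions. It favours regions that fell just short of the limit in All gRNA as labelled. At MGLL the −log10 q was 1.296 in All gRNA replicate 1 and 1.367 in No gRNA replicate 1. At TCF4, a bHLH factor with a role in EMT, folds were 2.74 and 2.63 in the pair labelled All gRNA and 3.61 and 3.34 in the pair labelled No gRNA, with percentiles 1.20 points lower (p = 0.33, exact permutation test). The region nearest to IL6ST, the shared receptor subunit of IL-6 family cytokines, had 2.40 and 2.47, and 3.05 and 3.69. At MGLL, a monoglyceride lipase, they were 2.66 and 2.50, and 2.66 and 3.09. Of the 32 named regions tested in this way, 9 had percentiles that did not overlap between the labelled groups, 4 of them higher and 5 lower in All gRNA, with exact p values of 0.33 to 1.00 over the 32. Of these 9, 4 (CRKL, USP7, TCF4 and the region nearest to IL6ST) were among the 8 that had been named because the labelled groups separated at them, which leaves 5 of 24. Over all 23848 regions 8.99% did not overlap with All gRNA higher and 24.2% with All gRNA lower, and over all distal regions 4.88% and 32.2%.

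H3K9me3, whose file names match the labels, covered less of the distal regions in All gRNA than in No gRNA. A peak touched 20.8% and 24.1% of distal regions in All gRNA, whereas No gRNA had 45.7% and 47.0%. Peaks covered 4.06% and 4.66% of their bases in All gRNA, whereas No gRNA had 12.2% and 11.8%. The means were 4.36% and 12% (n = 2 each), a difference of −7.64 percentage points (pooled SD 0.35). With the groups fully separated, the p of a two-sided exact permutation test is 0.33, which is as low as this design can go. Near regions went the same way with a smaller gap, 4.599% and 5.191% against 8.87% and 9.41%. Over all distal bases the lists covered 24.8% and 25.6% in All gRNA, whereas No gRNA had 24.2% and 23.9%, so overall coverage was not lower in All gRNA. Before regions with H3K9me3 in all 4 lists were left out, the 8308 distant regions had 9.49% and 10.1% against 18.0% and 17.6%.

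**Figure D4:**
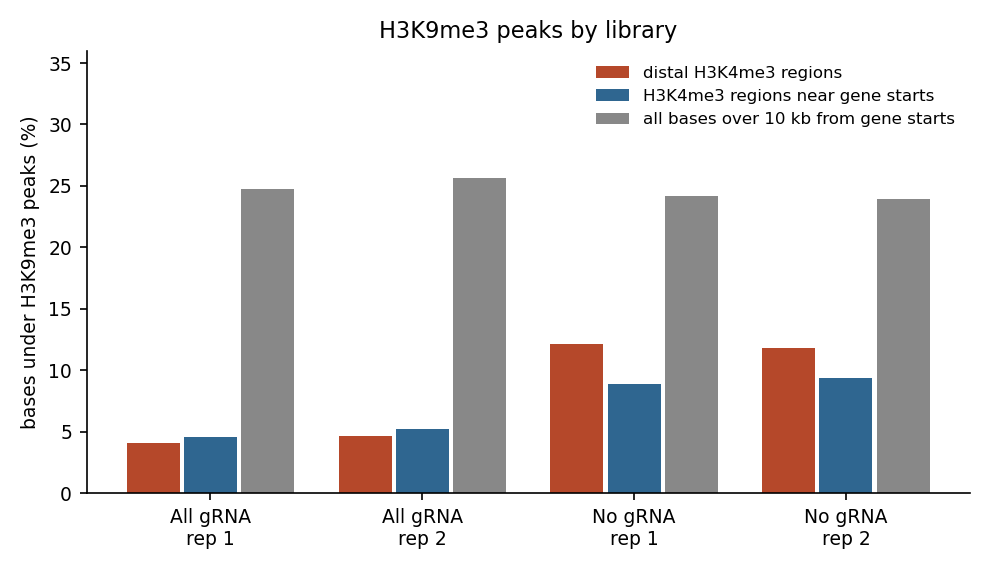
Percent of bases under H3K9me3 peaks in each library, for distal H3K4me3 regions (red), near regions (blue) and all bases over 10 kb from gene starts (grey). Distal regions have 4.06% and 4.66% in All gRNA, whereas No gRNA had 12.2% and 11.8%, while all distal bases stay between 23.9% and 25.6%.

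The difference in H3K9me3 was seen over all deposited peaks, most of them weak. With q of 0.05 or less, 22 and 10 distal regions had a peak in All gRNA, whereas No gRNA had 16 and 119, and none was called in either direction, where 0.0839% and 0.0671% of all regions were called higher and lower. With all peaks and the same gap of 25 points, 14 distal regions (0.195%, against 0.235% of all) were called higher and 251 (3.49%, against 2.25% of all and 1.44% of near regions) lower in All gRNA. The No gRNA lists also held more H3K9me3 peaks, 340783 and 346434 against 264055 and 284303, over similar lengths of 656.1 and 659.0 Mb against 664.8 and 692.1 Mb. Peaks in No gRNA were thus more numerous and shorter, and the part of this in the difference was not tested.

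Individual regions illustrate the pattern. The region chr10:22824820-22826892, 101132 bases from ARMC3, was covered by 0% and 0% in All gRNA, whereas No gRNA had 92.3% and 88.5%. An intronic region of NEBL, which encodes a protein of actin filaments, had 0% and 0% against 100% and 75.3%. In the other direction, a region in PIK3CD, a catalytic subunit of PI3-kinase, had 38.8% and 39.5% against 0% and 0%, and 1 in CMTM7 had 39.1% and 37.2% against 0% and 0%. No H3K9me3 list touched 2304 distal regions (32.1%). These were more often inside a coding gene (83.6%) than all distal regions (74.1%).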

How the data were processed

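SUM159 cells with dCas9-KRAB and either 4 ZEB1 gRNAs or none were profiled by native ChIP-seq for H3K4me3 and H3K9me3, with 2 libraries per group and mark. The authors deposited 1 MACS2 broad peak list per library on hg38, called per library. The submitters' processing notes name bcl2fastq 2.17, Trimmomatic 0.33, Bowtie 1.1.2 and MACS2 2.1.0, while the methods of the study name fastp, Bowtie 2 and removal of duplicates, so the exact route is not settled. Whether an input served as MACS2 control is not given in the sources used here. Each deposited peak has a fold enrichment ratio over background, −log10 p-value and −log10 q-value, and a score, which was not used. All values are the authors' and were not rescaled. The lists give no counts, so depth and counting intervals could not be given.

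Bases shared by all lists of a mark were computed with Python 3.11.15 and NumPy 2.4.6, and gene and transcript starts were taken from GENCODE release 44. Peaks with q of 0.05 or less, lists kept to equal covered length, and percentiles of −log10 q within a list were compared. Motifs were searched in the central 2000 bases of each region in hg38. Exact two-sided permutation tests over the 6 splits of 4 libraries used NumPy, Spearman's rho SciPy 1.17.1, and figures matplotlib 3.10.9. Interval functions were tested on simulated data. The regions and gene lists were chosen with earlier results of these data known. Named regions were the 10 with the highest lowest-of-4 percentile, the 5 widest, the 3 farthest from gene starts, up to 6 whose nearest coding gene was on a list, up to 5 called per direction (largest gap, then highest lowest percentile), and the 2 nearest each limit on either side. NEDD4, SLC3A2, the regions near AGPAT4 and RFC3, and the mapped loci were picked after their values were seen. A result on 1 named region is not reported here. The replicates are labelled biological, with no statement of separate cultures, and p values measure only the spread between these libraries. Alternatives were other widths, distances, thresholds, motif windows and sets of libraries. Chromosome Y and scaffolds were left out, and H3K4me3 groups follow the labels, not the conflicting file names.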

Additional observations from a re-analysis of the deposited data

Results flagged for a closer look

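The description above covers chromosomes 1 to 22. On chromosome X, which entered none of the comparisons, 58 regions met the same rule of width, distance from gene starts, H3K4me3 in all 4 lists and absence of H3K9me3 shared by all 4 lists, and the widest had 11113 bases. They stood out only as marked regions in data outside the main set, and no control library without the antibody was analysed here to set against them.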

How the results depend on the processing

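The number of distal regions followed the settings of the rule. It was 46 with q of 0.05 or less in all 4 lists, 19634, 3387 and 1076 with minimum widths of 1, 3 and 5 kb, 4377 and 1392 at over 20 and 50 kb from gene starts, 4065 with distance taken from every transcript start and 2304 with no base under any H3K9me3 list. Without 1 H3K4me3 library it was 8974 to 12307, the highest without the library labelled All gRNA replicate 1. Calls higher in All gRNA for H3K4me3 (3) became 5 with q of 0.1, 0 with 0.01, 16 at equal covered length and 102 by percentile, and calls lower (187) became 387, 41, 6 and 936. Leaving out 1 library gave 4 to 83 higher and 192 to 1003 lower calls. Lower calls were 768 and 1003 with No gRNA replicate 1 or 2 left out, and higher calls were 12 and 68 without All gRNA replicate 1 and 2 and 83 without No gRNA replicate 2. A lone remaining library gives no spread, so these are counts with no test. Named regions whose labelled groups did not overlap (9) were 15 to 25 of 32 with a library left out, as fewer libraries overlap less often by construction. For H3K9me3, calls higher (14) and lower (251) became 0 and 0 with q of 0.05 or less and 0 and 34 with a gap of 50 points. They were 29 to 130 and 372 to 902 with a library left out: higher calls were 130 and 116 without All gRNA replicate 1 and 2 and 29 and 41 without No gRNA replicate 1 and 2, and lower calls were 405 without All gRNA replicate 2 and 825 and 902 without No gRNA replicate 1 and 2. The difference in bases under H3K9me3 was −7.94 to −7.33 points with a library left out and −0.135 with q of 0.05 or less. The causes of these shifts were not tested beyond what each setting does by construction.

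GC content and the share within a coding gene moved less than these counts. The share with a transcript start, 17.03% over all distal regions, moved strongly with the set. AP-1 letters, in 63.60% of all distal regions, were less frequent in each set chosen without 1 library. In the central 1000 bases, in regions of at least 3 kb, in the 46 strong regions and in those without any H3K9me3, median GC was 44.50%, 44.91%, 45.14% and 45.34%, the CpG ratio 0.228, 0.238, 0.316 and 0.252, and the share with a transcript start 6.58%, 23.21%, 76.09% and 21.44%. The last 3 of these sets lay within a coding gene in 78.39%, 78.26% and 83.59%. In the central 1000 bases the motifs were found in 39.92% (AP-1), 46.26% (TEAD), 59.82% (E-box), 4.05% (ETS), 19.76% (GC box), 13.86% (forkhead) and 7.33% (CTCF part), as a shorter window holds fewer matches. In regions chosen without 1 library, ranges were 44.34% to 45.02% for GC, 0.230 to 0.239 for the CpG ratio, 14.61% to 16.95% for transcript starts, 72.62% to 73.43% within genes, 60.72% to 61.83% for AP-1, 82.58% to 82.94% for the E-box and 70.64% to 71.21% for TEAD. These sets without a library, the named regions without a library and the windows read with the library labelled No gRNA replicate 1 left out were chosen after seeing the data. Libraries with the same replicate number did not deviate together (Pearson's r of −0.02 for each mark over 23848 regions), and with the replicate number as a block H3K4me3 calls were 3 and 187 and H3K9me3 calls 20 and 318. The share of repeats could not be computed, as the genome sequence used here is not soft-masked. The unknown depth of the lists limits the comparison of weak peaks.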
